A study of Rattus norvegicus with 6 samples.

Results

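The 5 genes Ccnd1, Pcna, Cdk1, Ccnb1 and Mki67 of the cell division programme were followed in the implanted rat spinal cord. They were chosen by name as common markers of proliferation, by a rule that uses no measured value but with earlier results of these data known, and all 5 were found among the 22526 Ensembl gene IDs of the table (ENSRNOG00000020918, ENSRNOG00000021264, ENSRNOG00000000632, ENSRNOG00000058539 and ENSRNOG00000028137, in that order). The symbols came with the list of IDs and were not checked against an annotation, because the table gives IDs without names. The 6 libraries came from adult female rats of the Sprague-Dawley strain and were taken 2 weeks after injury of the cord. In 3 rats the lesion held a decellularized optic nerve scaffold, which is optic nerve stripped of its own cells (DON). In the other 3 it held the same kind of scaffold carrying the aptamer Apt19S, a short folded nucleic acid chosen to bind a target (A-DON). All 6 rats were injured and implanted, and each gave 1 library of mRNA from the cord, so DON without the aptamer was the only reference and the design holds no intact or unimplanted cord.

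The cell division cycle is driven by kinases that are switched on by cyclins. Cyclin D1, the product of Ccnd1, acts before DNA synthesis, where it binds the kinases Cdk4 and Cdk6 and passes on growth signals. Pcna encodes the sliding clamp that holds DNA polymerase on its template and also serves in DNA repair. Cdk1 encodes the kinase that starts mitosis, Ccnb1 encodes cyclin B1, its mitotic partner, and Mki67 encodes a protein that coats mitotic chromosomes and is widely stained to count cycling cells. In the injured cord, dividing cells are known to include microglia, astrocytes, oligodendrocyte precursors, ependymal cells, fibroblasts and vascular cells, and cyclin D1 is also made by cells that do not divide.

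Ccnd1 and Pcna were lower and Ccnb1 was higher in A-DON cords, and the differences of Cdk1 and Mki67 did not pass the test. Thus 3 of the 5 genes passed (1 higher, 2 lower), in a comparison in which 35.5% of all 19515 tested genes did, 18.9% higher and 16.6% lower in A-DON (limma, Benjamini-Hochberg adjusted p under 0.05 over all tested genes). The A-DON and DON values did not overlap in the same 3 genes, against 55.9% of all tested genes (28.0% with every A-DON rat higher, 27.9% with every A-DON rat lower). The median log2 difference of the 5 genes was 0.22, with -0.02 over all tested genes. With so many genes changed, the count among the 5 is not set apart from the table as a whole. In bulk tissue a lower value cannot separate fewer cells that express a gene from less RNA per cell.

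Reads counted over the genes of the table, recovered from the deposited values, came to 24961512 to 31189687 per library. The values are read counts divided by a size factor for the library, called normalized counts here. The tests were run on log2(normalized count + 1). A library stood apart in each group. Per degree of freedom, the chi-square of the read counts of 2 libraries was 172.4 and 148.1 between A-DON replicate 2 and the other A-DON libraries, against 21.9 between those, and 167.6 and 171.6 between DON replicate 1 and the other DON libraries, against 53.6 between those. Per-library weights were lowest for A-DON replicate 2 (0.242) and DON replicate 1 (0.408). The weight was by far the highest for A-DON replicate 3 (6.99), so the fit with sample weights leans most on that rat. Without A-DON replicate 2, 9286 genes passed the threshold, against 6930 with all libraries. In fits that left out another rat, 35 genes passed without A-DON replicate 1, 12 without A-DON replicate 3, and 3890, 3930 and 1552 without DON replicates 1, 2 and 3. The reads behind a value ran from 208 (Ccnb1, DON replicate 3) to 5738 (Ccnd1, DON replicate 1), which gives counting errors of 6.93% and 1.32%. These errors cover counting only.

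The stretches before the transcript starts are shown first. In 3 of the genes they hold matches to short words of the elements by which mitotic genes are known to be timed. The cell cycle genes homology region, TTTGAA or TTTAAA, is known as the contact of the MuvB complexes that repress such genes in resting cells, and nearby CCAAT boxes as contacts of the activator NF-Y. RefSeq promoter entries (build GRCr8) were found for 4 of the 5 genes, all but Ccnd1. Capitals mark every match, on either strand, to CCAAT, which appears as ATTGG when it lies on the other strand, to TTTGAA or TTTAAA, or to the E2F words TTTCGCGC, TTTGGCGC, TTTCCCGC and TTTGGCGG. Ccnb1 and Pcna are printed over the 250 bases before the start, at chr2:33655226-33655475 and chr3:139955821-139956070, both on the minus strand. Cdk1 (plus strand) is printed up to the base before its annotated gene span, at chr20:19265043-19265251, and then for the last 30 bases before the start that the promoter table uses, at chr20:19265263-19265292. The Mki67 window lies inside the annotated gene span, so only the 30 bases with its TTTGAA matches are printed, at chr1:199952683-199952712 on the minus strand. The genome of the libraries' own build, rn6, was not used here.
Ccnb1: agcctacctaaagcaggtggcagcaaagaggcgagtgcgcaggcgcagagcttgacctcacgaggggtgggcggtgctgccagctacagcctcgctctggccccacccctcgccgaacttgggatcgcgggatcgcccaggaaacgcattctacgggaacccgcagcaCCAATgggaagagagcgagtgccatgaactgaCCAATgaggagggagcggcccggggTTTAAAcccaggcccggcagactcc
Pcna: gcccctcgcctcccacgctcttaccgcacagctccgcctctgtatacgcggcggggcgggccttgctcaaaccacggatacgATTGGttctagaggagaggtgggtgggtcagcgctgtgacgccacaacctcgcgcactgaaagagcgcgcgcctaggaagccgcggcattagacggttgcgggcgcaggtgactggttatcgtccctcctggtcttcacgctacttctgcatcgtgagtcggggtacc
Cdk1, distal: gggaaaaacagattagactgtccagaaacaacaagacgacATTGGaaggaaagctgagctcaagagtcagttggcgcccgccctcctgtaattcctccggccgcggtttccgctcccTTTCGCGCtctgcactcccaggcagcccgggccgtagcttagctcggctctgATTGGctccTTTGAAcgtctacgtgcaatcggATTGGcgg
Cdk1, proximal: tttaccgcggtgagTTTGAAactgctggca
Mki67: aaTTTGAAccgccgttttcgTTTGAATTGG

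**Figure D1:**
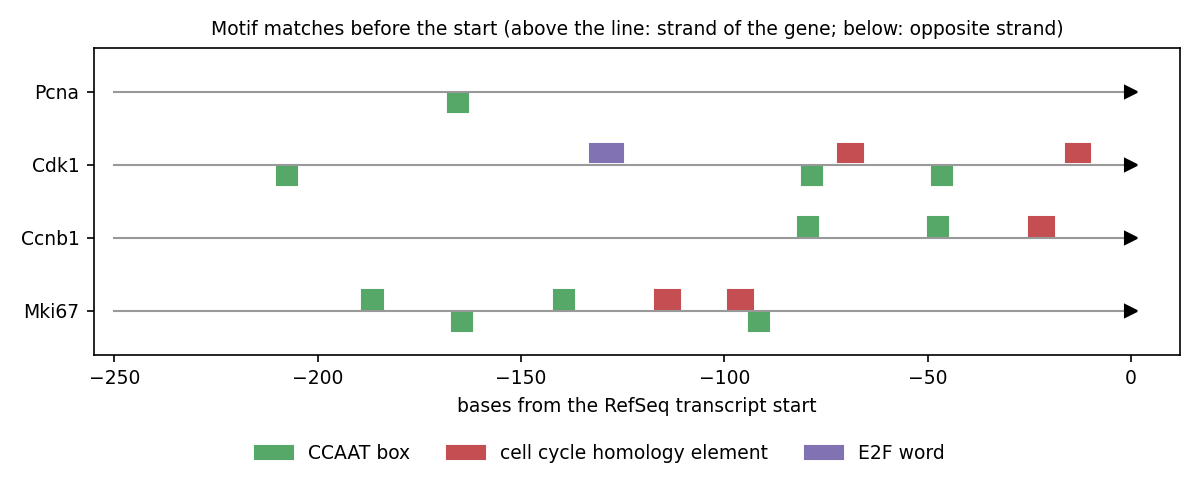
Positions of the motif matches in the 250 bases before the RefSeq transcript start of Pcna, Cdk1, Ccnb1 and Mki67; boxes above a line match on the strand of the gene and boxes below it on the opposite strand, and TTTAAA, which reads alike on both strands, is drawn above. Ccnb1, Cdk1 and Mki67 hold matches to the CCAAT box together with matches to the cell cycle genes homology region, and Pcna holds 1 CCAAT match.

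Ccnb1 held 2 CCAAT boxes and 1 TTTAAA, which ended 20 bases before the start. Cdk1 held 3 CCAAT boxes, 2 TTTGAA and 1 E2F word, TTTCGCGC. Mki67 held 4 CCAAT boxes and 2 TTTGAA, and the second TTTGAA shares 1 base with a CCAAT box on the other strand. Pcna held 1 CCAAT box and no match to the other words in this window. Of all 33469 promoters in the table, 34.0% held a CCAAT box, 25.4% a TTTGAA or TTTAAA, 9.04% both and 1.79% an E2F word. Of the 3 genes that hold matches to both elements, Ccnb1 passed the test, and the positive differences of Cdk1 and Mki67 did not. Pcna was the only gene with an entry and without matches to both elements. So few genes cannot tie the elements to a direction, and such a tie was not tested. A match describes letters only, and binding was not measured.

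Ccnd1, the cyclin that acts before DNA synthesis, had the largest difference of the 5. Its normalized count was 5469, 3248 and 3007 in DON replicates 1, 2 and 3. It was 1441, 2115 and 1689 in A-DON replicates 1, 2 and 3. Every A-DON rat lay below every DON rat, and DON replicate 1 was far above the other DON rats. The DON mean was 3908 ± 1357 and the A-DON mean 1748 ± 341 (SD, n = 3 rats each). The log2 difference was -1.12 (standard error 0.27), with a 95% interval of -1.79 to -0.46, that is 2.18-fold lower in A-DON (limma adjusted p = 0.0273). An exact two-sided permutation test of the log2 values gave p = 0.1, the smallest that 3 rats against 3 allow. Of all tested genes, 17.5% had a difference as low or lower. Leaving out DON replicate 1, the highest value, moved the log2 difference to -0.86 and kept the call (limma adjusted p = 0.0401), and so did leaving out A-DON replicate 2, at -1.27 (0.0178). The call was lost without DON replicate 2 (-1.23, limma adjusted p = 0.0506), DON replicate 3 (-1.29, 0.0572), A-DON replicate 1 (-0.99, 0.101) or A-DON replicate 3 (-1.11, 0.0982), in fits with 1 rat fewer.

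**Figure D2:**
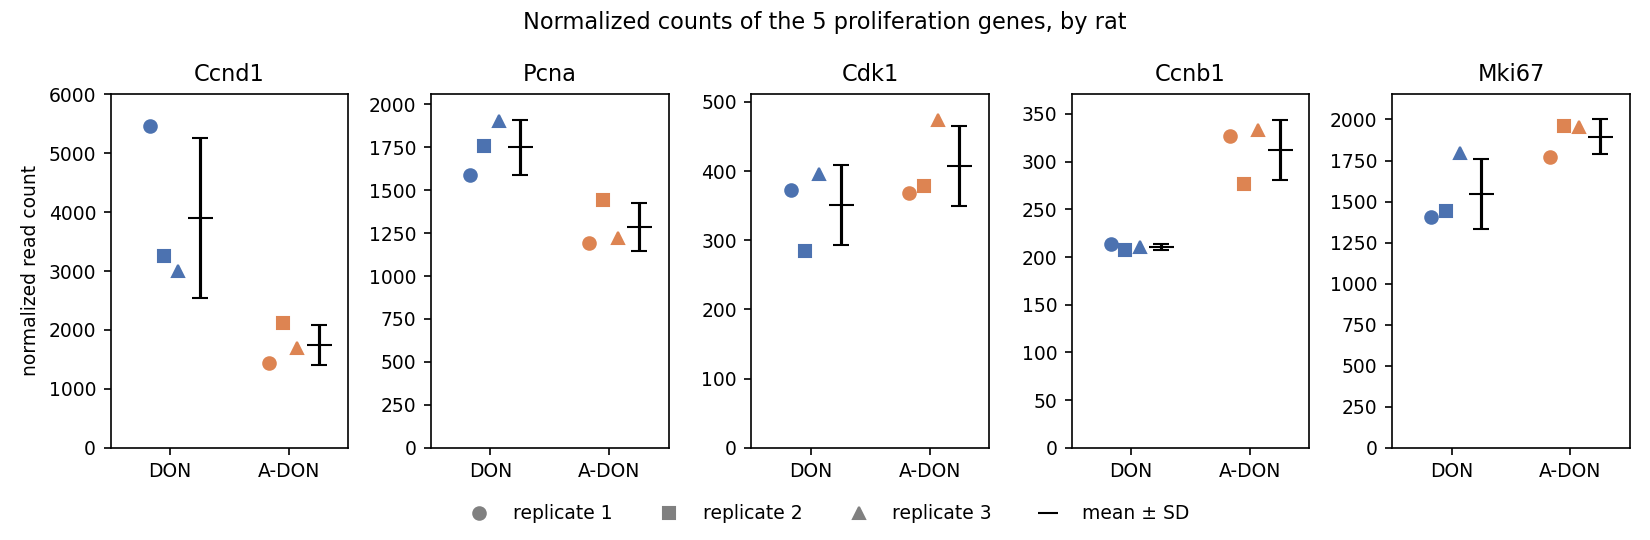
Normalized read counts of Ccnd1, Pcna, Cdk1, Ccnb1 and Mki67 in each rat (axes start at 0 and differ between genes); symbols mark the replicate number and bars the mean ± SD of 3 rats. Ccnd1 and Pcna lie lower and Ccnb1 higher in every A-DON rat, while the groups overlap in Cdk1 and Mki67.

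Pcna, the replication clamp, was lower in A-DON by a smaller margin. Its normalized count was 1587, 1757 and 1903 in DON replicates 1, 2 and 3. It was 1191, 1444 and 1223 in A-DON replicates 1, 2 and 3. The groups did not overlap, and the closest pair was DON replicate 1 and A-DON replicate 2, 0.14 apart on the log2 scale. The means were 1749 ± 158 and 1286 ± 138 (SD, n = 3 each). The log2 difference was -0.45 (standard error 0.13), with a 95% interval of -0.76 to -0.13, that is 1.36-fold lower (limma adjusted p = 0.0416; exact permutation p = 0.1). The call depended on how libraries were scaled: with equal library totals the log2 difference was -0.35 (limma adjusted p = 0.0885), and in RPM, the reads scaled to equal library totals, DON replicate 1 (53.4) and A-DON replicate 2 (53.6) changed places. Leaving out A-DON replicate 2 kept the call (-0.53, limma adjusted p = 0.0168), and it was lost without DON replicate 1 (-0.51, 0.0540), DON replicate 2 (-0.44, 0.0977), DON replicate 3 (-0.38, 0.125), A-DON replicate 1 (-0.39, 0.141) or A-DON replicate 3 (-0.41, 0.144). The reference lists 3 pseudogenes of Pcna, 1 of Cdk1 and 1 of Mki67, and how reads shared with them were counted is not given in the sources used here.

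Ccnb1, which encodes the mitotic cyclin, was the only gene of the 5 that passed the test as higher in A-DON. Its normalized count was 214, 208 and 210.2 in DON replicates 1, 2 and 3. It was 327, 276 and 333 in A-DON replicates 1, 2 and 3. The DON rats were nearly equal, every A-DON rat was above them, and A-DON replicate 2 lay nearest to DON. The means were 210.5 ± 2.85 and 312 ± 31.4 (SD, n = 3 each). The log2 difference was 0.56 (standard error 0.15), with a 95% interval of 0.19 to 0.94, that is 1.48-fold higher (limma adjusted p = 0.0361; exact permutation p = 0.1). The DON spread was 1.35% of the mean, below the counting error of 6.68% to 6.93% per DON library, and only 1.36% of tested genes had a smaller log2 SD in DON. The standard error above does not rest on that spread alone, because limma draws each gene's variance towards those of genes at a like level. The call was lost under quantile normalization (0.60, limma adjusted p = 0.0682). Leaving out A-DON replicate 2 kept it (0.65, limma adjusted p = 0.0170), and it was lost without DON replicate 1 (0.57, 0.0696), DON replicate 2 (0.55, 0.0848), DON replicate 3 (0.56, 0.0979), A-DON replicate 1 (0.53, 0.129) or A-DON replicate 3 (0.51, 0.135).

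Cdk1, which encodes the kinase partner of cyclin B1, overlapped between the groups. Its normalized count was 373, 285 and 395 in DON replicates 1, 2 and 3. It was 369, 379 and 474 in A-DON replicates 1, 2 and 3. A single rat in each group set the means apart, DON replicate 2 at the low end and A-DON replicate 3 at the high end. The means were 351 ± 58.1 and 407 ± 57.9 (SD, n = 3 each). The log2 difference was 0.22 with a standard error of 0.19, and its 95% interval of -0.25 to 0.68 holds changes from 0.843-fold to 1.60-fold (limma adjusted p = 0.394; exact permutation p = 0.5). Without DON replicate 2 the log2 difference was 0.08, and without A-DON replicate 3 it was 0.10 (limma adjusted p = 0.775 and 0.747).

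Mki67, the marker of cycling cells, had a positive difference that did not pass the test. Its normalized count was 1408, 1443 and 1794 in DON replicates 1, 2 and 3. It was 1770, 1960 and 1954 in A-DON replicates 1, 2 and 3. Only DON replicate 3 and A-DON replicate 1 crossed, and they differed by 0.02 on the log2 scale. The means were 1549 ± 214 and 1895 ± 108 (SD, n = 3 each). The log2 difference was 0.30 with a standard error of 0.13, and its 95% interval of -0.02 to 0.62 holds changes from 0.984-fold to 1.54-fold (limma adjusted p = 0.120; exact permutation p = 0.2). With equal library totals the difference was 0.39 and still missed the threshold (limma adjusted p = 0.0634). In RPM the groups did not overlap, with 63.6, 72.8 and 69.9 in A-DON replicates 1, 2 and 3 and 47.4, 49.8 and 60.9 in DON replicates 1, 2 and 3. Scaling to equal totals moved the whole table, with a median log2 difference over tested genes of 0.07 against -0.02. The share of all genes that do not overlap in RPM was not counted.

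**Figure D3:**
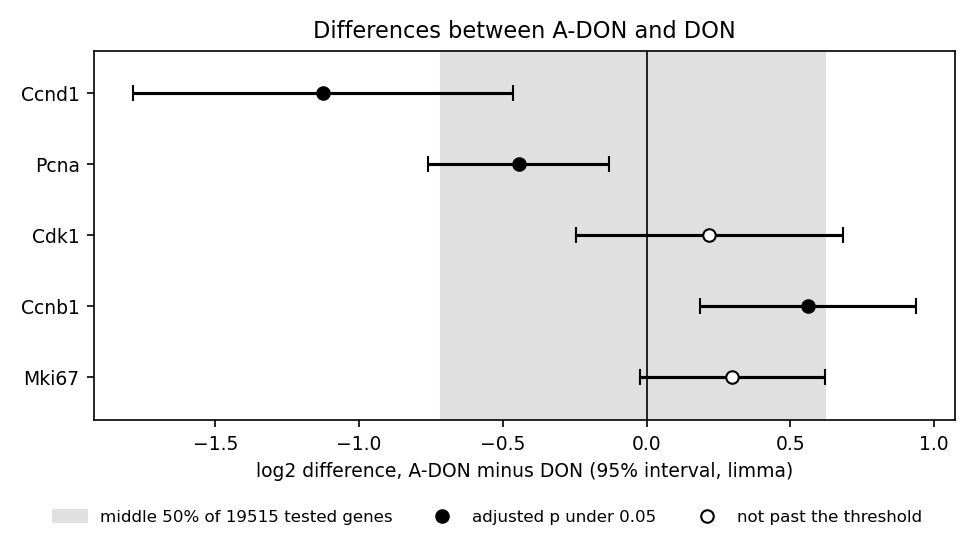
Log2 difference between A-DON and DON for each gene with its 95% interval from limma; filled points passed an adjusted p of 0.05, and the grey band spans the middle 50% of all tested genes, from -0.71 to 0.62. Ccnd1 is the only one of the 5 whose estimate lies outside the band.

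Among the 5, the rats did not keep 1 order. A-DON replicate 1 had the lowest value of all 6 rats in Ccnd1 and in Pcna, A-DON replicate 3 the highest in Cdk1 and in Ccnb1, and A-DON replicate 2 the highest in Mki67. DON replicate 1, the highest in Ccnd1, was the lowest of the 6 in Mki67. The place of A-DON replicate 2 between the DON mean (0) and the mean of the other A-DON rats (1), on the scale of normalized counts, was 0.77 for Ccnd1, 0.56 for Pcna and 0.55 for Ccnb1. It was 0.40 for Cdk1 and 1.31 for Mki67, where the group difference itself did not pass the test. For the 3 genes that passed, this rat thus lay on the DON side of the other A-DON rats. That place was not particular to these genes. Over the whole table, the chi-square per degree of freedom between A-DON replicate 2 and DON replicates 1, 2 and 3 was 270.8, 157.8 and 190. Against A-DON replicates 1 and 3 it was 172.4 and 148.1. For A-DON replicate 1 against DON replicates 1, 2 and 3 it was 713.3, 500.7 and 568.4.

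Setting each gene against Cdk1 in the same library removes the scaling of the library and asks whether the genes kept their proportions. Because the genes differ in length, only the change of a ratio between groups is read. In all, 4 ratios were compared. The log2 ratio of Ccnd1 to Cdk1 was 3.43 ± 0.48 in DON and 2.09 ± 0.34 in A-DON (SD, n = 3 each), a difference of -1.34 with no overlap between the groups. The log2 ratio of Pcna to Cdk1 was 2.32 ± 0.27 in DON and 1.66 ± 0.28 in A-DON (SD, n = 3 each), a difference of -0.66, also with no overlap. Both reached the lowest p that the design allows in an exact permutation test (two-sided, p = 0.1), and 0.2 after Benjamini-Hochberg adjustment over the 4 ratios, so no ratio could pass the threshold. Of all tested genes, 55.9% did not overlap in their own values. The share that does not overlap in the ratio to Cdk1 was not counted, so the separation is not shown to be particular to Ccnd1 and Pcna. The difference of Cdk1 itself, 0.22 and not past the test, enters every ratio. Leaving out 1 library gave ratio differences of -1.60 to -1.12 for Ccnd1 and -0.80 to -0.52 for Pcna. The Pcna value was -0.52 both without DON replicate 2 and without A-DON replicate 3. The log2 ratio of Ccnb1 to Cdk1 was -0.72 ± 0.24 in DON and -0.38 ± 0.18 in A-DON (SD, n = 3 each), and the groups overlapped (difference 0.34, exact permutation p = 0.2, adjusted 0.267). The log2 ratio of Mki67 to Cdk1 was 2.14 ± 0.21 and 2.22 ± 0.17 (SD, n = 3 each), a difference of 0.08 that was smaller than the spread within either group (exact permutation p = 0.6, adjusted 0.6).

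**Figure D4:**
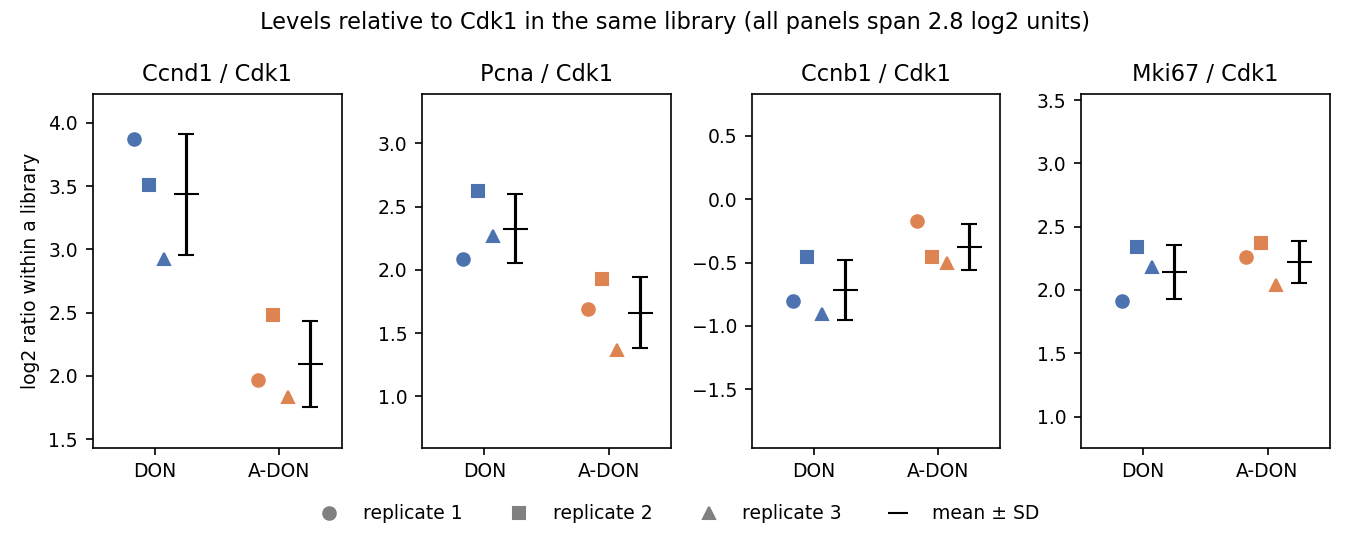
Log2 ratio of Ccnd1, Pcna, Ccnb1 and Mki67 to Cdk1 within each library, by group, with the mean ± SD of 3 rats; all panels span the same range. The Ccnd1 and Pcna ratios are lower in every A-DON rat, and the Ccnb1 and Mki67 ratios overlap between the groups.

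Ccnd1 had many genes with a like pattern and Cdk1 few. Among the 14705 other genes whose mean normalized count reached 50, 842 had a Pearson r over 0.95 with Ccnd1 over the 6 libraries, and 8 with Cdk1. The closest to Ccnd1 were ENSRNOG00000016423 and ENSRNOG00000022514 (r = 0.9984 for both). ENSRNOG00000016423 had 6684 ± 1400 normalized counts in DON and 4023 ± 613 in A-DON (SD, n = 3 rats per group; log2 difference -0.72, limma adjusted p = 0.0336). ENSRNOG00000022514 had 721 ± 106 and 504 ± 52.4 (SD, n = 3 rats per group; log2 difference -0.51, limma adjusted p = 0.0487). The closest to Cdk1 were ENSRNOG00000024867 and ENSRNOG00000030520 (r = 0.986 for both), whose differences did not pass the test (0.13 and 0.07, limma adjusted p = 0.445 and 0.597). The coefficients are over 6 libraries in 2 groups, so a difference between the groups in both genes adds to r. The genes were picked by r over these same libraries. Their differences and limma adjusted p therefore largely follow from that choice and are not separate evidence. The files used here pair no name with these 4 IDs.

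The 5 genes kept their direction under every one of the 15 settings that were run for each, and the calls moved with the setting. Ccnd1 passed in 10 of the 15, Ccnb1 in 8 and Pcna in 6. Cdk1 and Mki67 passed in 0 of the 15, with limma adjusted p of 0.0962 to 0.775 for Cdk1 and of 0.0611 to 0.284 for Mki67. Markers of the dividing cell types were not read here, because no table pairs symbols with the IDs, and the part of cell content in these differences was not tested.

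**Figure D5:**
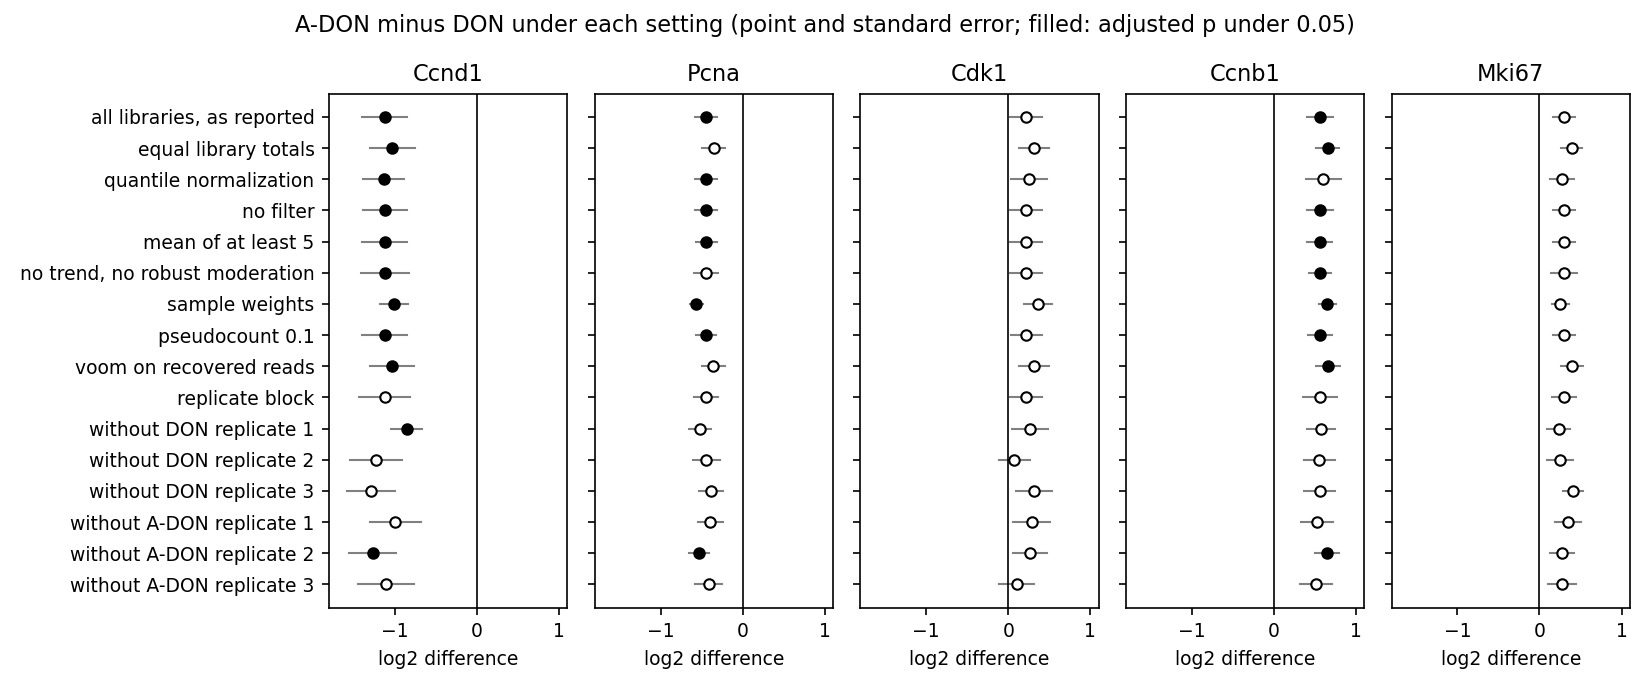
Log2 difference between A-DON and DON for each gene (columns) under each setting (rows), with the standard error from limma; filled points passed an adjusted p of 0.05. All points of a gene lie on the same side of 0, though some settings cannot move the point. Most calls of Ccnd1, Pcna and Ccnb1 are lost when a library other than A-DON replicate 2 is left out.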

How the data were processed

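Per the labels' protocols, stranded mRNA-seq libraries were made from the cord of 6 rats. STAR 2.5.3a, StringTie 1.3.1c, FastQC 0.11.2 and build rn6 appear in the submitters' processing notes, with no step named for them. How reads were assigned to genes, with which strand setting and annotation, is not stated in the sources used here. For 22526 genes, log2 values were deposited by the authors. After undoing log2 and subtracting 1, 100% of values were whole multiples of 1 step per library (tolerance 0.05 reads), so the values are log2(reads / size factor + 1), with size factors of 0.927 to 1.05. Replicates are separate rats, and no 2 libraries agreed within sampling noise (chi-square per degree of freedom of 21.9 to 713.3 over 15 pairs).

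The groups were compared in limma 3.58.1 with statmod 1.5.0 under R 4.3.3 (group only, intensity trend, robust). Genes entered where 3 or more libraries had a normalized count of 1 or more, with Benjamini-Hochberg adjustment and a threshold of 0.05. Differences are of log2(normalized count + 1), which understates those of low genes. Exact permutation tests enumerated all 20 assignments. The 5 members and the lists were chosen with earlier results of these data known. The naming rule took all 5 members and the 2 genes closest in pattern to Cdk1 and to Ccnd1. None of the table's IDs was found in the reference of 47357 genes, so 18 lists of cell cycle genes and cell type markers could not be applied. Alternatives were equal library totals, quantile normalization, 2 other filters, limma without trend or robust moderation, sample weights, a pseudocount of 0.1, voom on whole reads, the replicate block and leaving out each library. Python 3.11.15, numpy 2.4.6, pandas 2.3.3 and scipy 1.17.1 were used.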

Additional observations from a re-analysis of the deposited data

How the results depend on the processing

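No direction of the 5 genes changed under the alternatives run, some of which leave the estimate itself unchanged and so could not change it. The Ccnd1 call was lost with the replicate block (log2 difference -1.12, limma adjusted p = 0.0874). The Pcna call was lost with equal library totals (-0.35), with voom on recovered reads (-0.35), with limma without trend or robust moderation (-0.45) and with the replicate block (-0.45), and the Ccnb1 call with quantile normalization (0.60) and the replicate block (0.56). Leaving out 1 library gave -1.29 to -0.86 for Ccnd1, -0.53 to -0.38 for Pcna and 0.51 to 0.65 for Ccnb1. Without DON replicate 1 the difference in the Mki67 to Cdk1 ratio changed sign, and leaving out 1 library gave -0.034 to 0.18 for it, against 0.08. Of the 19515 genes, sample weights called 12414 (6153 higher, 6261 lower), and leaving out 1 library 12 to 9286 (11 to 4431 higher, 1 to 4855 lower), against 6930 (3698 and 3232). The replicate block called 0 in all, 0 higher and 0 lower (limma), with 7601 at an unadjusted p under 0.05. Equal totals gave 4371 higher and 2418 lower, and voom 7512 in all, 4574 higher and 2938 lower. The labels give the same replicate numbers in both groups and do not say whether they pair rats. Deviations from the group means of same-numbered rats were not shared (r = -0.17, -0.24 and -0.08). No A-DON rat correlated best with its own number. The library that stood apart had a different number in each group, and each mean was of 3 rats. These correlations therefore cannot settle whether the numbers pair rats. The cause of the changes in the counts was not tested. Counting error was largest for Ccnb1, at up to 6.93%, and below 6% for the other 4 genes.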

Other observations

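Ccnb1 and Cdk1, which encode the 2 parts of the mitotic kinase, each held a pair of CCAAT boxes on 1 strand with starts 32 bases apart. In Ccnb1 the pair began 82 and 50 bases before the start, on the strand of the gene, and in Cdk1 81 and 49 bases before it, on the opposite strand. The spacing was noticed in the sequences and then counted: 0.260% of the 33469 promoters held such a pair at 32 bases and 0.648% at 31 to 33 bases. Mki67 had no such pair, with spacings of 47 bases on the strand of the gene and 73 on the other.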
